A study of Mus musculus with 8 samples.

Results

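The 10 genes described here, Clock, Npas2, Per1, Per2, Per3, Cry1, Cry2, Nr1d1, Nr1d2 and Dbp, belong to the mammalian circadian clock and its output. They are not a complete list of either. They were chosen by name, out of 21887 protein-coding genes of the RefSeq annotation of GRCm38 (mm10). All 10 were found in the annotation, and each locus was read as the gene body with 50 kb on each side. The peaks came from CUT&Tag, in which a transposase tethered through an antibody cuts and tags the DNA around a histone mark, and the tagged pieces are sequenced. The marks were H3K27ac and H3K9ac, acetylation of histone H3 at 2 of its lysines, which is found at active promoters and, for H3K27ac, at active enhancers. The cells were small intestinal crypt cells of male C57BL/6J mice of 9 weeks, released from the tissue with EDTA and dissociated with trypsin. There were 4 groups for each mark: Fed (-Tetra), fed mice without tetracycline; Fast (-Tetra), mice fasted for 24 h without tetracycline; Fed (+Tetra), fed mice given tetracycline, an antibiotic, for 21 days; and Fast (+Tetra), mice given tetracycline for 21 days and fasted for 24 h. Each group held 1 sample with 2 deposited peak lists, numbered 1 and 2, so that there were 8 lists for each mark and 16 in all. The labels name an IgG beside each antibody, and how it was used is not given in the sources used here. Neither is the time of day at which the crypts were taken, nor whether lists 1 and 2 came from different mice, so p-values measure only the spread between lists, which may be technical. Cells were profiled in bulk, and a mark carried by fewer cells cannot be told apart from less of the mark in each cell.

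The clock is a feedback loop of transcription and translation that runs in nearly every cell. CLOCK, or its relative NPAS2, pairs with a basic helix-loop-helix partner, binds E-box sequences and activates the Period (Per), Cryptochrome (Cry), Nr1d and Dbp genes. PER and CRY proteins accumulate, enter the nucleus and repress their own activators, while the nuclear receptors NR1D1 and NR1D2 (REV-ERB alpha and beta) repress genes that carry ROR elements. DBP carries the rhythm to output genes by binding D-boxes. In the intestine, as in the liver, the time of feeding is known to set the phase of the local clock, and histone acetylation at these genes is known to rise and fall over the day.

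The promoter sequences are shown first, since they were searched for the motifs through which the loop is known to act. RefSeq promoter windows for GRCm38.p6, each running from 250 bases before to 50 bases after an annotated start, were listed for 9 of the 10 genes, with 12 windows in all; Per2 was not matched. The E-box CACGTG and its variant CACGTT, the D-boxes TTATGTAA and TTACGTAA, 2 forms of the ROR element and the cAMP element TGACGTCA were searched on both strands. No match overlapped another, and the windows of Clock, Npas2, Nr1d2 and Dbp and the second Per1 window held none. CACGTG was found in the Cry1 window and in the first of the 2 Per1 windows, and in 7.84% of all 21263 windows. CACGTT was found in the windows of Cry1, Cry2 and Nr1d1, in each case as AACGTG on the strand shown, and in 4.68% of all windows. TTATGTAA was found 2 times in the Per3 window, at -205 and -158 counted from the start to the first base of the match, and in 0.894% of all windows. The other 4 strings were in no window of the 10 genes, against 0.136% of all windows for TTACGTAA, 0.155% and 0.16% for the ROR elements and 2.23% for TGACGTCA; a missing match says only that these letters are not in these windows. Per3 is shown because its start carried both marks in every list and its window held a motif, and the other 4 because they held an E-box string, a choice made after the values were seen. The 250 bases before the start are printed 5′ to 3′ on the strand of the gene, with the motifs in capitals.
Per3 (chr4:151044666-151044915, minus strand): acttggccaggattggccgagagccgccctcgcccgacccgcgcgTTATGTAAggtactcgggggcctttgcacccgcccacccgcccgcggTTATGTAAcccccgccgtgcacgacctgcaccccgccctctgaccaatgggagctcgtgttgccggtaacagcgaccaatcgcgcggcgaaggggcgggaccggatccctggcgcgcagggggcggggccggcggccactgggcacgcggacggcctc
Cry1 (chr10:85185055-85185304, minus strand): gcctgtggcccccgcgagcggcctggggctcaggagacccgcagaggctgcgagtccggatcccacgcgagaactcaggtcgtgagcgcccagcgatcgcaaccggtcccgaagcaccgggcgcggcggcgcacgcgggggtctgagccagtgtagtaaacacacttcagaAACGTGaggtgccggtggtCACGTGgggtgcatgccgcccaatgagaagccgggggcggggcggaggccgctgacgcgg
Cry2 (chr2:92434070-92434319, minus strand): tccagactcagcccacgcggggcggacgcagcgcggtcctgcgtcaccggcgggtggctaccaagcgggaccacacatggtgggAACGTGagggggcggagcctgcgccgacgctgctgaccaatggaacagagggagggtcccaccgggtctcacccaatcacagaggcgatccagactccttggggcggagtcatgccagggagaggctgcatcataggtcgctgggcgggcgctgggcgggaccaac
Nr1d1 (chr11:98775378-98775627, minus strand): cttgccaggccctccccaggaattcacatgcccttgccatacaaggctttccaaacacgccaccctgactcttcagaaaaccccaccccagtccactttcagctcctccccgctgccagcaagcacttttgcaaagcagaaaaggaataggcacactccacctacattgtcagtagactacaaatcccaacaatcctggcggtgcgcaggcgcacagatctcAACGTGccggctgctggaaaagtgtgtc
Per1, first window (chr11:69098699-69098948, plus strand): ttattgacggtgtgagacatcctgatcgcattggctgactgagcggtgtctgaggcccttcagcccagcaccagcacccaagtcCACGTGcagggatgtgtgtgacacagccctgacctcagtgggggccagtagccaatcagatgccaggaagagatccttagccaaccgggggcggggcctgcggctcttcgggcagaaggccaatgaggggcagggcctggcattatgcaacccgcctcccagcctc

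In the Cry1 window CACGTG began at -60 and AACGTG at -79. The E-box string began at -166 in Per1 and, as AACGTG, at -166 in Cry2 and at -28 in Nr1d1. H3K27ac peaks covered all 300 bases of the Per3, Cry1, Cry2, Nr1d1 and first Per1 windows in all 8 lists. H3K9ac peaks covered all 300 bases in 7 of 8 lists for Per3, Cry1 and Cry2, in 6 for Nr1d1 and in 4 for the first Per1 window. A match of letters is a description of the sequence under a peak, and binding was not measured.

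The H3K27ac lists held 32392 to 68545 peaks over 33.1 to 64.2 Mb and the H3K9ac lists 17249 to 99050 peaks over 16.5 to 47.3 Mb. The lists are named as downsampled and give no read totals, so the depth behind each is unknown, and no limit of detection can be given for a gene without a peak. Of 10 epithelial marker genes, all 10 had an H3K27ac peak within 1 kb of a gene end in every list. Of 10 immune markers, 2 to 5 were marked in Fed and 4 to 6 in Fast H3K27ac lists, and no list had such a peak at Cd4, Adgre1 or Csf1r. Of 8 mesenchymal, endothelial and muscle markers at most 1 was marked in any H3K27ac list, and of 4 neural markers none. For H3K9ac, 8 to 10 of the epithelial markers were marked in Fed and 9 to 10 in Fast lists, with 7 in all 8 lists. The H3K9ac lists marked 0 to 3 immune markers in Fed and 1 to 4 in Fast, 0 to 1 and 0 to 3 of the mesenchymal, endothelial and muscle markers, and 0 to 2 and 0 to 1 of the neural markers. The part of other cell types in any difference between feeding states was not tested.

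All 10 clock genes were marked by both acetylations in crypt cells, H3K27ac almost without a gap and H3K9ac less regularly. A gene was called marked where a peak lay within 1 kb of either end of its body. H3K27ac marked 9 of the 10 genes in all 8 lists, beside 33.6% of all genes. The exception was Npas2, which had no H3K27ac peak at an end in Fed (+Tetra) list 1. H3K9ac marked only Per3 and Cry2 in all 8 lists, beside 21.1% of all genes and 52.3% of the 7362 genes with H3K27ac at an end in all 8 lists. Of the other genes, Clock, Npas2, Per2, Cry1, Nr1d1 and Dbp were marked by H3K9ac in 7 lists, Per1 in 6 and Nr1d2 in 5. In Cry2 the H3K9ac peak of Fast (+Tetra) list 1 lay at the far end of the gene and not at its start, so Per3 alone had both marks within 1 kb of a listed start in all 16 lists. Beside that, 34.5% of the 17492 genes with a listed start had H3K27ac there in all 8 lists and 21.5% had H3K9ac.

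**Figure D1:**
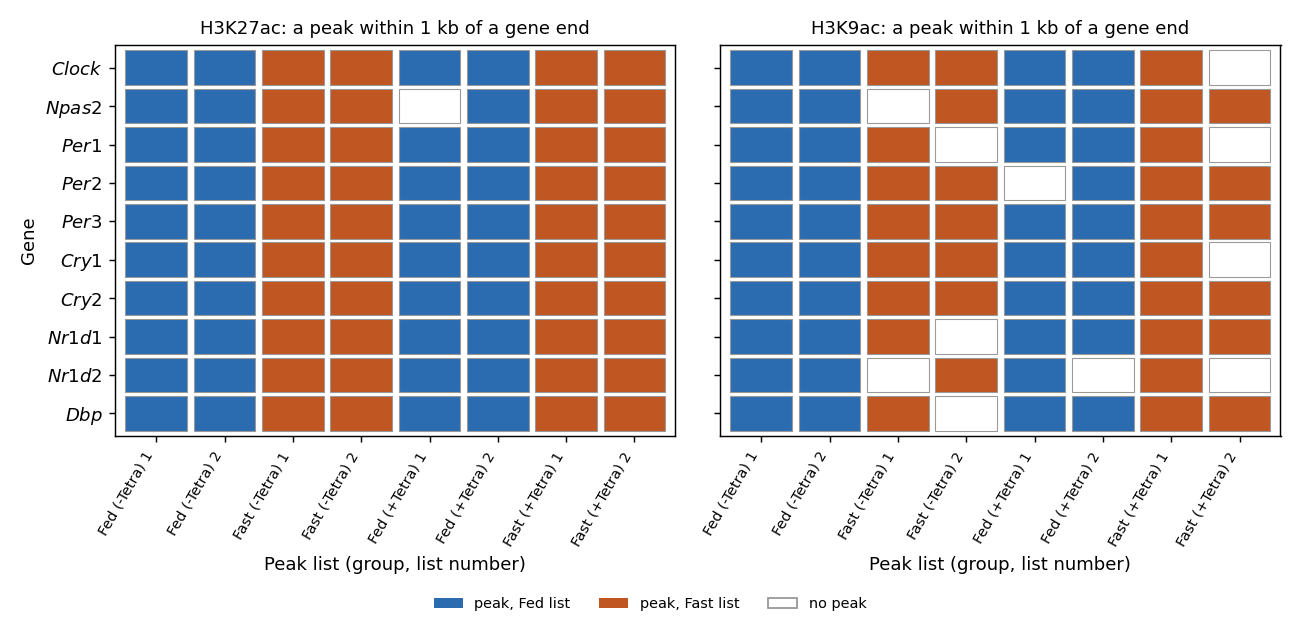
Each square is 1 gene (rows) in 1 peak list (columns), filled where a peak of H3K27ac (left) or H3K9ac (right) lay within 1 kb of a gene end, in blue for Fed and orange for Fast lists. 79 of 80 squares are filled for H3K27ac and 69 of 80 for H3K9ac, with 9 of the 11 empty H3K9ac squares in Fast lists.

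Clock and Npas2 encode the activators of the loop, and the 2 genes carried the marks in different ways. Clock lies at chr5:76209868-76305603 on the minus strand, and 1 region at its start, chr5:76303366-76307082, held H3K27ac in every list and H3K9ac in 7. H3K27ac covered 3021 and 3076 bp of Clock in Fed (-Tetra) lists 1 and 2, 2897 and 4132 bp in Fast (-Tetra), 2640 and 3793 bp in Fed (+Tetra) and 4134 and 2996 bp in Fast (+Tetra). Covered length is the number of bases under peaks in the gene body and 1 kb each side. The H3K27ac values of fed and fasted lists overlapped, and a median of 3.12% of the gene was covered, the lowest share of the 10. H3K9ac covered 2046 and 1888 bp of Clock in Fed (-Tetra), 877 and 2026 bp in Fast (-Tetra), 2463 and 2762 bp in Fed (+Tetra) and 3943 and 450 bp in Fast (+Tetra). Both the highest and the lowest of these 8 values were in the Fast (+Tetra) group.

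Npas2, at chr1:39193702-39363240 on the plus strand, is the longest of the genes and held acetylated regions far inside its body. Regions were made for each mark by joining peaks of any list that overlapped by at least 1 bp. Npas2 held 25 H3K27ac regions, of which 3 had a peak in all 8 lists: chr1:39195945-39197840, chr1:39203694-39207636 and chr1:39234298-39236240, centred 2.6, 11.4 and 41.0 kb inside the gene. H3K9ac was found in these 3 regions in 5, 3 and 3 lists. H3K27ac covered 8960 and 15562 bp of Npas2 in Fed (-Tetra), 12834 and 15961 bp in Fast (-Tetra), 9254 and 16999 bp in Fed (+Tetra) and 11477 and 13093 bp in Fast (+Tetra). Both Fed groups spread more widely between their 2 lists than did the Fast groups, list 1 being the lower each time. H3K9ac covered 1498 and 6584 bp in Fed (-Tetra), 4073 and 4416 bp in Fast (-Tetra), 1141 and 4935 bp in Fed (+Tetra) and 6618 and 3714 bp in Fast (+Tetra), again with both low values in list 1 of the Fed groups. Of 41 H3K9ac regions in Npas2, 35 were found in a single list.

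The Period genes encode the repressors that set the length of the cycle with the Cryptochromes, and Per2 was the most broadly acetylated of the 10 genes together with Npas2. Per2 lies at chr1:91415977-91459351, and its strand is not listed in the tables used. H3K27ac covered 12501 and 14623 bp of Per2 in Fed (-Tetra), 12676 and 17737 bp in Fast (-Tetra), 11268 and 16540 bp in Fed (+Tetra) and 12557 and 16390 bp in Fast (+Tetra). The lists numbered 2 were higher in all 4 groups, and fed and fasted lists overlapped. 5 regions of Per2 had H3K27ac in all 8 lists. The widest, chr1:91453145-91461328, lay over the end of the gene with the higher coordinate and had H3K9ac in all 8 lists. In Fed (+Tetra) list 1 the H3K9ac peaks in it lay more than 1 kb from that end, so H3K9ac marked an end of Per2 in 7 lists. The other 4, chr1:91445496-91447496, chr1:91441642-91445413, chr1:91439346-91441021 and chr1:91435783-91437524, were centred 12.9, 15.8, 19.2 and 22.7 kb from that end and had H3K9ac in 3, 4, 4 and 5 lists. H3K9ac covered 1972 and 8962 bp of Per2 in Fed (-Tetra), 6629 and 7646 bp in Fast (-Tetra), 2725 and 10702 bp in Fed (+Tetra) and 2862 and 2113 bp in Fast (+Tetra). H3K9ac was low in list 1 of both Fed groups and in both Fast (+Tetra) lists, and the feeding states overlapped.

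Per1, a fast-responding member of the family, lies at chr11:69095108-69109965 on the plus strand. Its main H3K27ac region, chr11:69093880-69100591, had a peak in all 8 lists. Joined over the lists, the region reached from before the body over both listed starts, which lie more than 1 kb inside the body. H3K27ac peaks covered the first promoter window in all 8 lists and the second in 5. They covered 0 bases of the second in Fed (+Tetra) list 1 and in both Fast (+Tetra) lists. H3K27ac covered 5648 and 5925 bp of Per1 in Fed (-Tetra), 6789 and 6764 bp in Fast (-Tetra), 4893 and 6616 bp in Fed (+Tetra) and 6445 and 5441 bp in Fast (+Tetra), with overlap between feeding states. H3K9ac covered 2026 and 3707 bp in Fed (-Tetra), 4604 and 1132 bp in Fast (-Tetra), 4267 and 4355 bp in Fed (+Tetra) and 4168 and 874 bp in Fast (+Tetra). The lists numbered 2 of both Fast groups were the lowest, while those numbered 1 were near the 2 Fed (+Tetra) values. The H3K9ac region chr11:69094395-69099567 was nevertheless present in all 8 lists, since the Per1 peaks that missed the 1 kb windows lay further inside the gene.

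Per3, at chr4:150997018-151044707 on the minus strand, had the narrowest marks of the family, with a region at the start, chr4:151043233-151046183, that held both marks in all 16 lists. That region also reached the end of the neighbouring gene Gm38529, so the 2 genes cannot be told apart there, and Uts2 overlaps the body of Per3. H3K27ac covered 2687 and 2149 bp of Per3 in Fed (-Tetra), 2888 and 2180 bp in Fast (-Tetra), 1818 and 3231 bp in Fed (+Tetra) and 3201 and 1833 bp in Fast (+Tetra). H3K9ac covered 1192 and 2964 bp in Fed (-Tetra), 2977 and 1596 bp in Fast (-Tetra), 2224 and 2920 bp in Fed (+Tetra) and 2438 and 597 bp in Fast (+Tetra). For neither mark did the feeding states separate, and the lowest H3K9ac value was again in Fast (+Tetra) list 2.

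Cry1 and Cry2 encode the strong repressors of the loop. Cry1 lies at chr10:85131700-85185054 on the minus strand and had H3K27ac in all 8 lists at its start, chr10:85183370-85186217, and at chr10:85174208-85175428, 10.2 kb inside the gene. The start held H3K9ac in 7 lists and the inner region in none, and a further H3K27ac region 24.6 kb inside was found in 7 lists. H3K27ac covered 3566 and 3958 bp of Cry1 in Fed (-Tetra), 3831 and 5166 bp in Fast (-Tetra), 3248 and 4334 bp in Fed (+Tetra) and 4204 and 3679 bp in Fast (+Tetra). H3K9ac covered 1849 and 2831 bp in Fed (-Tetra), 1138 and 2920 bp in Fast (-Tetra), 1943 and 1643 bp in Fed (+Tetra) and 2915 and 0 bp in Fast (+Tetra). Cry1 had no H3K9ac peak anywhere in the gene in Fast (+Tetra) list 2, while the other list of that group had nearly the highest value of the 8.

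Cry2, at chr2:92403646-92434085 on the minus strand, had H3K27ac in all 8 lists at its start, chr2:92433243-92434783, and in regions centred 6.0 and 10.1 kb inside, chr2:92427378-92428664 and chr2:92423411-92424565. H3K9ac was found in 7 lists at the start, in 7 in the region at 6.0 kb and in 5 in the region at 10.1 kb. H3K27ac covered 2714 and 4050 bp of Cry2 in Fed (-Tetra), 4093 and 5551 bp in Fast (-Tetra), 4510 and 4676 bp in Fed (+Tetra) and 4275 and 3469 bp in Fast (+Tetra). H3K9ac covered 1656 and 2014 bp in Fed (-Tetra), 3924 and 3196 bp in Fast (-Tetra), 1786 and 3762 bp in Fed (+Tetra) and 2807 and 4758 bp in Fast (+Tetra). The median H3K9ac length of Cry2 was 3.56 kb over the Fast and 1.90 kb over the Fed lists, and Fed (+Tetra) list 2 lay above 2 of the 4 Fast lists.

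Nr1d1 and Nr1d2 encode the nuclear receptors that repress through ROR elements. Nr1d1 lies at chr11:98767932-98775377 on the minus strand and overlaps the end of Thra, so marks in its far end cannot be given to 1 gene. The region at its start, chr11:98772262-98778000, held H3K27ac in every list and H3K9ac in 7. H3K27ac covered 4652 and 5548 bp of Nr1d1 in Fed (-Tetra), 6073 and 5382 bp in Fast (-Tetra), 4114 and 5032 bp in Fed (+Tetra) and 4088 and 4015 bp in Fast (+Tetra). The 2 Fast (+Tetra) values were the lowest, just below the 4114 bp of Fed (+Tetra) list 1. Those 2 lists lacked a second H3K27ac region, chr11:98769351-98771511, that the other 6 lists held. The share of all regions split in this way was not counted. On the centred log2 scale the fasting difference with tetracycline minus that without it was -0.19 (SE 0.29, unadjusted limma p 0.524). H3K9ac covered 1888 and 4071 bp in Fed (-Tetra), 4184 and 0 bp in Fast (-Tetra), 4210 and 3633 bp in Fed (+Tetra) and 4749 and 3536 bp in Fast (+Tetra), with no peak in Fast (-Tetra) list 2.

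Nr1d2, at chr14:18204056-18239106 on the minus strand, had H3K27ac in all 8 lists at its start, chr14:18235662-18239897, and at chr14:18233400-18235194, 4.8 kb inside. H3K9ac was present in 5 lists at the start, the fewest of the 10 genes, and in 1 at the inner region. H3K27ac covered 2943 and 4175 bp of Nr1d2 in Fed (-Tetra), 5194 and 4349 bp in Fast (-Tetra), 4180 and 4829 bp in Fed (+Tetra) and 3950 and 4302 bp in Fast (+Tetra). H3K9ac covered 2006 and 1968 bp in Fed (-Tetra), 0 and 2716 bp in Fast (-Tetra), 1836 and 717 bp in Fed (+Tetra) and 1650 and 0 bp in Fast (+Tetra). Both lists without an H3K9ac peak in Nr1d2 were Fast lists, 1 from each tetracycline state, while the highest value was also in a Fast list.

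Dbp, the output gene that binds D-boxes, is the shortest of the 10 and was acetylated over nearly its whole length. It lies at chr7:45705100-45710203 on the plus strand and its end overlaps Sphk2. Joined over all 8 lists, the H3K27ac peaks at the gene formed a single region of 13452 bp, chr7:45703570-45717021, that reached the ends of neighbouring genes. All 8 lists had peaks in it, but its extent is that of the joined peaks. In Fed (+Tetra) list 2, 1 peak of 12184 bp spanned most of it. In the other lists the widest peak at the gene was 2944 to 7138 bp. H3K27ac covered 6197 and 6362 bp of Dbp in Fed (-Tetra), 6981 and 6925 bp in Fast (-Tetra), 5711 and 7104 bp in Fed (+Tetra) and 6655 and 7074 bp in Fast (+Tetra), a median of 95.6% of the gene with its 1 kb margins. H3K9ac covered 3593 and 5626 bp in Fed (-Tetra), 2008 and 0 bp in Fast (-Tetra), 1790 and 6628 bp in Fed (+Tetra) and 5012 and 3990 bp in Fast (+Tetra). Without tetracycline both Fast H3K9ac values lay below both Fed values, and with tetracycline the Fast values lay between the Fed values. Also without tetracycline, both Fast values lay above both Fed values for H3K27ac in Dbp, Per1, Cry2 and Nr1d2 and for H3K9ac in Cry2. With tetracycline, both Fast values lay below both Fed values for H3K27ac in Cry2 and Nr1d1 and for H3K9ac in Per1. The share of all genes with such an order within 1 tetracycline state was not counted. These lengths were not centred, and the Fast (-Tetra) H3K27ac lists covered 53.1 and 64.2 Mb, the Fed (-Tetra) lists 37.7 and 53.2 Mb. After centring, the H3K27ac differences without tetracycline were -0.11 for Dbp, -0.035 for Per1, 0.22 for Cry2 and 0.14 for Nr1d2. The median share of the gene covered by H3K27ac fell in the order Dbp 95.6%, Nr1d1 51.3%, Per1 36.7%, Per2 30.1%, Cry2 12.9%, Nr1d2 11.4%, Npas2 7.56%, Cry1 7.04%, Per3 4.90% and Clock 3.12%. For H3K9ac the first 6 places were the same, led by Dbp at 53.4% and Nr1d1 at 40.8% and ending with Clock at 2.08%. The share is relative to gene length, which ran from 5.1 kb in Dbp to 169.5 kb in Npas2.

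**Figure D2:**
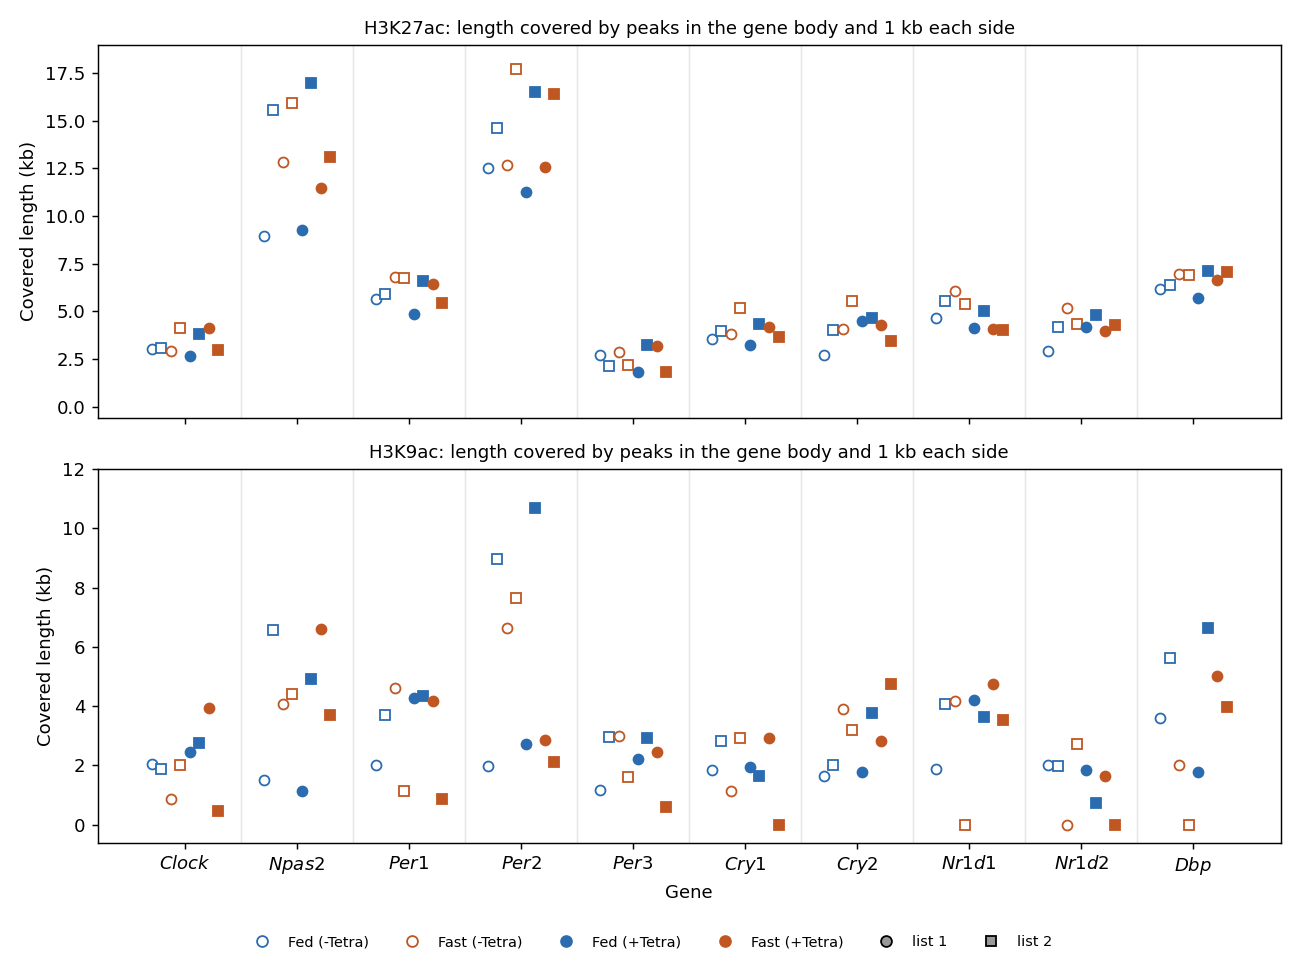
The y axis gives the length in kb covered by H3K27ac (top) and H3K9ac (bottom) peaks in each gene body and 1 kb each side, with 1 point for each of the 8 lists of a mark (blue Fed, orange Fast, open without and filled with tetracycline, circle list 1, square list 2). The H3K27ac points of every gene stay at or above 1.82 kb, whereas H3K9ac points reach 0 in Cry1, Nr1d1, Nr1d2 and Dbp.

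**Figure D3:**
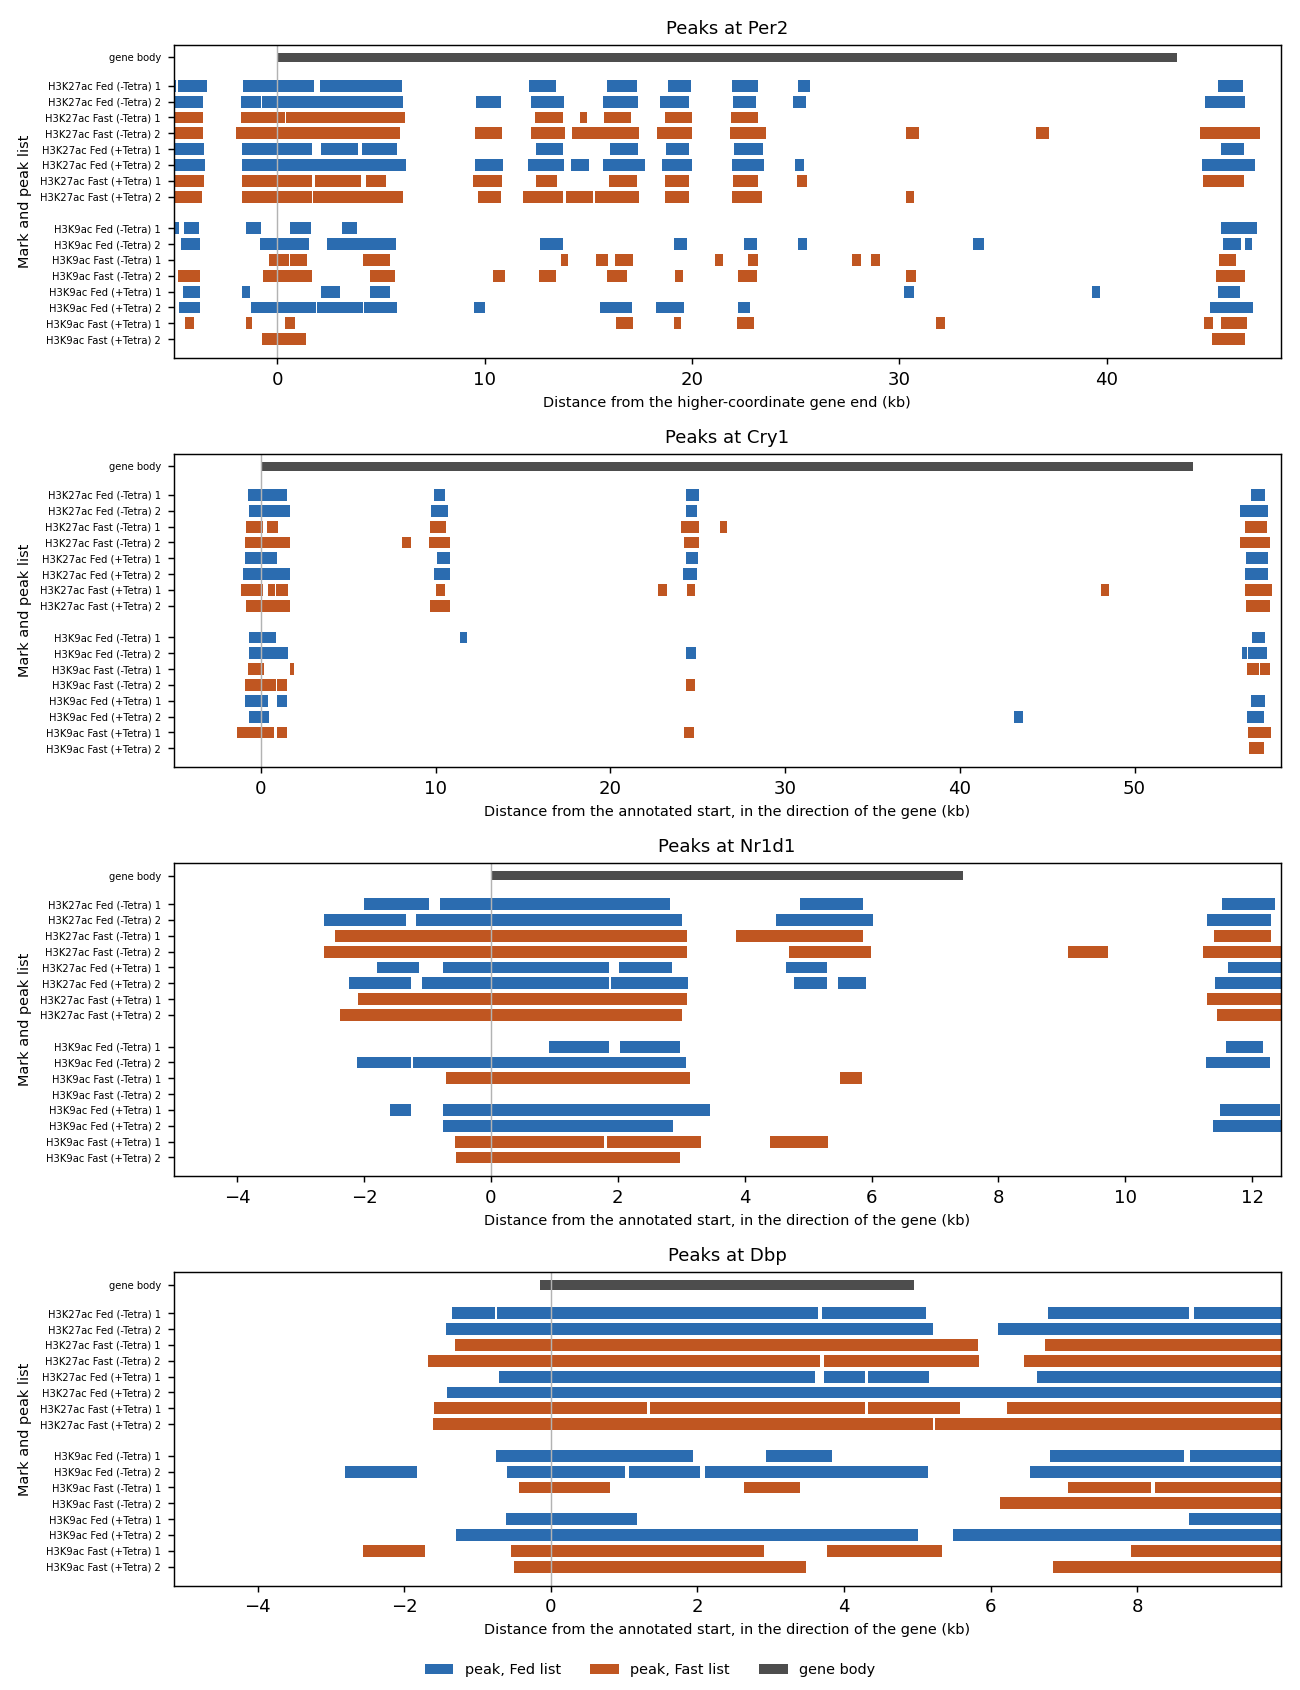
Bars are peaks in each of the 16 lists (rows, blue Fed and orange Fast) at Per2, Cry1, Nr1d1 and Dbp, against the distance in kb from the annotated start in the direction of the gene, or, for Per2, from the end with the higher coordinate; the dark grey bar is the gene body. The columns of H3K27ac bars inside Per2 between 12.9 and 22.7 kb recur in all 8 lists, while the H3K9ac bars below them recur in 3 to 5.

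Whether fasting changed the marks at clock genes was asked first by presence. No member had H3K27ac at an end in all 4 Fast and no Fed list (0.0959% of all genes did) or in all 4 Fed and no Fast list (0.0137%). The same was true of H3K9ac, with 0.0777% and 0.0411% of all genes. Of the 10 clock genes, H3K9ac marked 10, 10, 9 and 9 in the 4 Fed lists and 8, 7, 10 and 6 in the 4 Fast lists, which overlapped; this difference was not tested. The genes with H3K27ac at an end in all 8 lists, taken as a background, were marked by H3K9ac in a mean of 92.1% in Fed and 85.4% in Fast lists. The Fast lists with unmarked clock genes were Fast (+Tetra) list 2, with 6 of 10 marked, Fast (-Tetra) list 2 with 7 and Fast (-Tetra) list 1 with 8, whereas Fast (+Tetra) list 1 had all 10. Fast (+Tetra) list 2 was also the list with the fewest background genes marked, 79.5%, and its peaks were the narrowest, with a median width of 303 bp; the part of list quality in these counts was not tested. The size of the lists moved with feeding among those numbered 1, which held 17249 and 24643 H3K9ac peaks in Fed and 99050 and 97764 in Fast, and less among those numbered 2, with 51552 and 54158 in Fed and 35889 and 53313 in Fast; its part in the result was not tested either.

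Covered length gave no call for fasting in any of the 10 genes. Lengths were compared as log2(bp + 500), centred on the median of the tested genes in each list, with limma fitted to all genes and Benjamini-Hochberg adjustment over all of them. For H3K27ac, 12119 genes had a mean of at least 500 bp and were tested, all 10 clock genes among them; 0.0495% of the genes were called higher in Fast and 0 lower at an adjusted p under 0.05. The clock genes' log2 differences, Fast minus Fed, ran from -0.19 (SE 0.15, Nr1d1) to -0.04 (SE 0.16, Clock), with a median of -0.07 beside -0.05 for all genes and a lowest limma adjusted p of 0.695. All 10 differences were below 0 with centring, and all 10 were above 0 without it, where the median of all genes moved to 0.14. The 95% intervals reached down to -0.66 (Per3) and up to 0.34 (Npas2), so that a fall of 1 on the log2 scale lay outside all 10. A rise of 1 lay outside them too, but covered length cannot exceed the gene with its 1 kb margins. In Dbp, where H3K27ac covered a median of 95.6% of that window, no such rise was possible. The intervals concern the length of peaks only, and the signal under them was not compared. No clock gene had an unadjusted limma p under 0.05, beside 10.4% of all genes, and none had all 4 Fast lists above all 4 Fed lists or below them on the centred scale, beside 3.41% and 3.45%.

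For H3K9ac, 13011 genes were tested, all 10 clock genes among them, and 0 were called in either direction by limma, with 8.02% at an unadjusted p under 0.05. 8 of the 10 clock genes had lower and 2 higher estimates in Fast, with a median of -0.66 on the log2 scale beside -0.01 for all genes, of which 48.7% were higher. The lowest estimates were those of Dbp, -1.08 (SE 0.45), and Nr1d2, -0.99 (SE 0.68). Per1 was at -0.70 (SE 0.41), Cry1 and Nr1d1 were both at -0.68 (SE 0.54), Clock was at -0.65 (SE 0.46), Per3 at -0.46 (SE 0.33) and Per2 at -0.33 (SE 0.39). Cry2, at 0.46 (SE 0.29), and Npas2, at 0.45 (SE 0.38), were the genes with higher estimates. Dbp alone had an unadjusted p under 0.05 (0.0386), and its limma adjusted p of 0.599 was the lowest of the 10. No clock gene had all 4 Fast lists above or below all 4 Fed lists in the gene, beside 2.31% and 2.51% of the tested genes. The median of the 10 estimates depended on single lists: it was -0.22 without Fast (+Tetra) list 2, -0.37 without Fast (-Tetra) list 1, -0.39 without Fast (-Tetra) list 2, -0.93 without Fast (+Tetra) list 1 and 0.02 without all lists numbered 2. The spread between the 2 lists of a group was wider for these genes (median SD 0.81) than for the tested genes as a whole (0.55), and estimates of genes with a list at 0 depend on the 500 bp added: with 2000 bp added the median was -0.29.

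**Figure D4:**
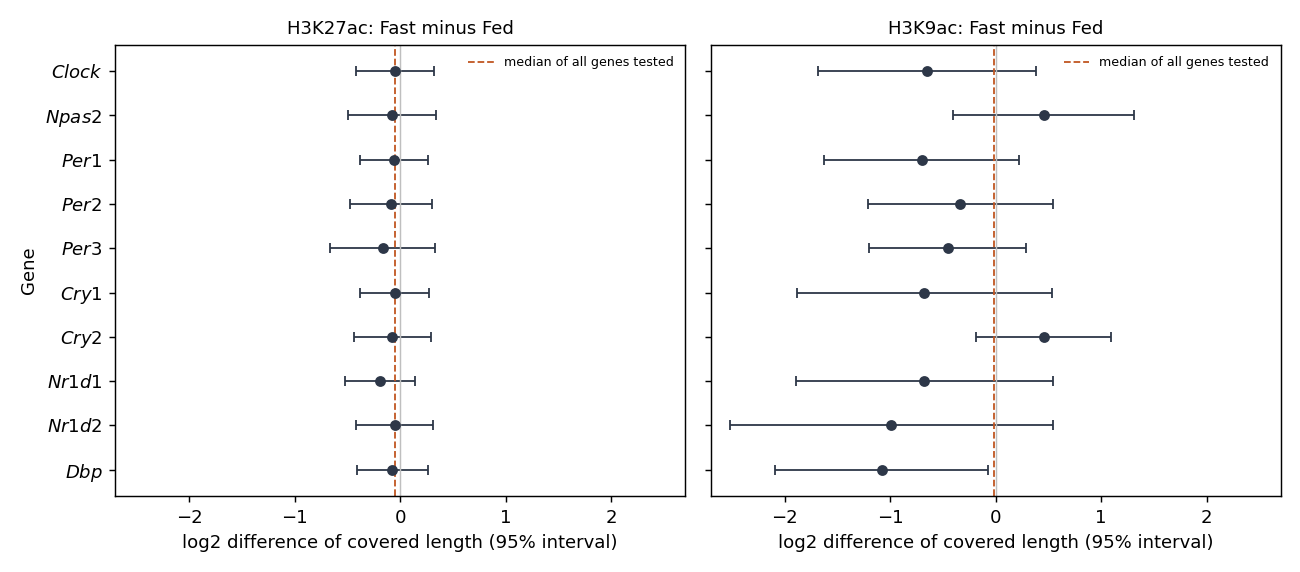
Points give the limma estimate of the log2 difference in covered length, Fast minus Fed, averaged over both tetracycline states, for each gene in H3K27ac (left) and H3K9ac (right); bars are 95% intervals over 4 lists against 4, and the dashed line is the median of all genes tested. H3K27ac points lie between -0.19 and -0.04, while 8 of 10 H3K9ac points lie below 0 with intervals that include 0 for every gene except Dbp.

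Tetracycline was compared next, on the same lengths. No clock gene was called for tetracycline in either mark, beside 0 of all genes tested; 5.02% of genes for H3K27ac and 3.02% for H3K9ac had an unadjusted limma p under 0.05, and no clock gene did. The H3K27ac differences, +Tetra minus -Tetra, ran from -0.19 (SE 0.15, Nr1d1) to 0.17 (SE 0.16, Cry2), with a median of 0.09 and 9 of 10 above 0, beside 54.0% of all genes. The H3K9ac differences ran from -0.61 (SE 0.54, Cry1) to 0.97 (SE 0.54, Nr1d1), with a median of 0.03. No clock gene had either mark at an end in all 4 lists of one tetracycline state and none of the other, beside 0.00457% (+Tetra) and 0.0959% (-Tetra) of all genes for H3K27ac and 0.0457% and 0.0411% for H3K9ac.

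The fasting difference itself was then compared between tetracycline states. No clock gene was called for this interaction in either mark, and no other gene tested was, with a limma adjusted p of 1.0 for all 10 in both. The widest contrast was in Dbp H3K9ac, where Fast minus Fed was -2.30 (SE 0.64) without tetracycline and 0.13 (SE 0.64) with it, an interaction of 2.43 (SE 0.91) with an unadjusted limma p of 0.0233. Dbp was the only clock gene with an interaction p under 0.05, beside 2.61% of all genes. The difference without tetracycline had a limma adjusted p of 0.836 among the 13011 genes and of 0.0343 (log2 difference -2.71) when all 21887 genes entered the fit, where 13 genes were called lower and 1 higher, and it includes the list with no peak in Dbp. Per2 H3K9ac pointed the other way, 0.52 (SE 0.56) without and -1.19 (SE 0.56) with tetracycline, an interaction of -1.71 (SE 0.79) with an unadjusted limma p of 0.0558. For H3K27ac the widest interaction was that of Cry2, -0.58 (SE 0.32); 3.19% of all genes and no clock gene had an unadjusted p under 0.05. Within each tetracycline state no clock gene reached an unadjusted p under 0.05 for H3K27ac, beside 7.99% of genes without and 6.35% with tetracycline. For H3K9ac Dbp alone did so without tetracycline (unadjusted limma p 0.00514), beside 5.83% of genes. With tetracycline no clock gene did for H3K9ac, beside 5.24%.

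The flanks, from 1 to 50 kb beyond each gene end, hold between 2 (Npas2) and 9 (Dbp) other protein-coding genes, whose own marks are part of the values. H3K27ac covered the most flank at Nr1d1 (20.9 to 34.5 kb over the 8 lists) and Dbp (17.6 to 26.9 kb), and at Nr1d2 1.6 to 3.6 kb, the lowest median of the 10 (2.4 kb). No flank was called for fasting: for H3K27ac the median difference was -0.05 and the lowest limma adjusted p 0.478, beside 0.23% of genes called higher and 0.0263% lower. For H3K9ac 9 of 10 flanks had lower estimates in Fast, with a median of -0.35 beside -0.02 for all genes and a lowest limma adjusted p of 0.475; 0 genes were called higher and 0.00597% lower. The H3K9ac flanks of Per1, at -0.67, and Cry2, at -0.56, had an unadjusted limma p under 0.05 (0.0405 and 0.0471), beside 10.1% of all genes. That median was 0.06 without the lists numbered 1 and -0.64 without those numbered 2, and in the latter fit Per1 (-1.33, limma adjusted p 0.0153) and Per2 (-1.20, limma adjusted p 0.0442) were called lower, beside 305 genes lower and 30 higher. The centred H3K9ac flank lengths of Per3 were higher in all 4 Fast lists than in any Fed list, beside 2.33% of genes, and those of Cry2 were lower in all 4, beside 3.73%. The Per3 flanks held 1.4 and 3.1 kb of H3K9ac in Fed (-Tetra), 4.1 and 3.0 kb in Fast (-Tetra), 1.4 and 2.4 kb in Fed (+Tetra) and 5.0 and 2.5 kb in Fast (+Tetra), so the lengths before centring overlapped. Those of Cry2 overlapped too, with 5.4 and 10.3 kb in Fed (-Tetra), 8.2 and 4.4 kb in Fast (-Tetra), 6.4 and 10.4 kb in Fed (+Tetra) and 5.5 and 7.9 kb in Fast (+Tetra). Across tetracycline states the H3K27ac flank of Npas2 differed by -0.56 (SE 0.23, unadjusted limma p 0.0306, adjusted p 0.696), beside 0.0395% of genes called lower and 6.9% at an unadjusted p under 0.05. Its flanks held 4.4 and 4.5 kb in Fed (-Tetra), 6.3 and 6.4 kb in Fast (-Tetra), 3.1 and 4.0 kb in Fed (+Tetra) and 4.1 and 1.7 kb in Fast (+Tetra). Every +Tetra value lay below every -Tetra value before centring, with some overlap after it. All genes were counted for that order only after centring, where it held for 1.46% of them and not for Npas2.

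The regions at clock genes were then set beside those of the genome, with no test. In the 10 genes and 1 kb each side 66 H3K27ac regions were found, of which 20 (30.3%) recurred in every list and 20 (30.3%) were seen in only 1; over the genome these shares were 14.6% and 53.1%. The flanks held 110 H3K27ac regions, of which 33 were in all 8 lists, 21 of them within 1 kb of the end of another gene. For H3K9ac, 4 of 106 regions in the same windows (3.77%) recurred in every list and 77 (72.6%) were seen in only 1, beside 1.52% and 84.4% of all regions. The regions over the ends of Per1, Per2 and Per3 were 3 of these 4. The other, chr7:45710728-45716036, began past the end of Dbp, at the end of another gene, and had no base within 1 kb of Dbp in Fast (-Tetra) list 2. All 11 of the 205 H3K9ac flank regions present in all 8 lists lay at the end of another gene. Regions of the genes include the gene ends by construction.

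A single region at the 10 loci separated the feeding states in every list. The H3K9ac region chr11:98762859-98764111 was present in all 4 Fed and none of the 4 Fast lists, beside 0.0145% of all H3K9ac regions. It is centred 11.9 kb from the start of Nr1d1, past the far end of that gene, at the right edge of its panel in the maps of peaks, inside the body of Thra, a thyroid hormone receptor gene, and more than 1 kb from any gene end. H3K27ac was present at the same place, chr11:98762599-98764155, in all 8 lists, so the difference between feeding states was seen in the presence of 1 mark only. The H3K9ac region was absent from the count when the upper 0.5 of each list by score, or an equal number of peaks taken by score from each, was used. No region at the loci was present in all 4 Fast and no Fed lists for either mark (0.4% of all H3K27ac and 0.0189% of all H3K9ac regions). No H3K27ac region there was in all 4 Fed and no Fast lists (0.0837%). None was split by tetracycline, beside 0.024% and 0.0882% of H3K27ac regions and 0.0189% and 0.00879% of H3K9ac regions in +Tetra only and -Tetra only.

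Of 20 further genes of the clock pathway, taken as a list of other regulators, kinases, ubiquitin ligases and output factors, 10 had H3K27ac at an end in all 8 lists and 4 in none, beside 39.4% of all genes in none. The unmarked ones, named after their values were seen, were Arntl2, Rora, Rorb and Bhlhe41. For H3K9ac the number of the 20 marked ran from 12 to 14 in Fed and from 6 to 16 in Fast lists. None was marked in all lists of one feeding or tetracycline state and none of the other. Of the 17 tested for H3K27ac covered length in the gene, 7 had higher and 10 lower estimates in Fast and none was called (lowest limma adjusted p 0.19), while 2 had an unadjusted p under 0.05, beside 10.4% of all genes tested. Of the 18 tested for H3K9ac, 9 were higher and 9 lower with a median of -0.03, and none was called (lowest limma adjusted p 0.489), while 5 had an unadjusted p under 0.05, beside 8.02% of all genes tested.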

How the data were processed

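CUT&Tag peak lists of H3K27ac and H3K9ac were used, 2 lists in each of 4 groups for each mark. The authors called peaks in each list separately, and each deposited list gives chromosome, start and end, a MACS peak name and, as its last value, a score of at least 50, whose unit is not given in the sources used here. The submitters' processing notes name FastQC, Bowtie, SAMtools and mm10. The score ranked peaks within a list only. Members and lists were chosen with earlier results of these data known; all 10 members were to be named, with regions present in all lists of one state and none of the other. Gene bodies and promoter windows came from RefSeq for GRCm38.p6, and exons were not used here. Covered length was log2(bp + 500), centred per list, for genes with a mean of at least 500 bp, in limma 3.58.1 (R 4.3.3; lmFit, eBayes with trend, 4 group means). The fit was also run on simulated data with planted differences. The share recovered is not given here, so the power to call a change at these genes is not stated. Counting used Python 3.11.15, numpy 2.4.6 and pandas 2.3.3. Alternatives covered peak selection, pseudocount, filter, centring, window, flank, merging, list number as a block and left-out lists.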

Additional observations from a re-analysis of the deposited data

How the results depend on the processing

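No clock gene was called for H3K27ac or H3K9ac length in the gene, averaged over tetracycline states, under any alternative run, and the fit with list number as a replicate block changed no call of a clock gene. The deviations of same-numbered lists over genes correlated between 0.032 and 0.21 for H3K27ac, all above 0, and between -0.10 and 0.22 for H3K9ac. Neither mark had every pair above 0.1, so the number was not taken as a pairing; whether H3K27ac lists of a number share a source was not tested. The block moved calls over all genes from 6 to 3 for H3K27ac in the gene, from 35 higher and 4 lower to 104 and 27 in H3K27ac flanks, and from 0 and 1 to 4 and 26 in H3K9ac flanks. Without centring, the median of the clock genes for fasting became 0.12 in H3K27ac genes and 0.21 in flanks, with Clock at 0.15, Npas2 0.12, Per1 0.13, Per2 0.11, Per3 0.026, Cry1 0.14, Cry2 0.12, Nr1d1 0.003, Nr1d2 0.14 and Dbp 0.12. With the upper 0.5 of each list by score it became 0.05, with Clock at 0.22, Npas2 0.31, Per1 0.026, Per2 0.032, Cry2 0.10, Nr1d2 0.17 and Dbp 0.067, and the H3K27ac tetracycline median became -0.044. With equal numbers of peaks taken by score from each list, H3K27ac fasting estimates were 0.036 for Clock, 0.039 for Per1, 0.014 for Per3, 0.035 for Nr1d1, 0.032 for Nr1d2 and 0.072 for Dbp. In that selection the H3K9ac estimate of Per1 was 0.44, the H3K9ac tetracycline median was -0.48, 1 H3K27ac region was present in every Fast list but no Fed list, and the H3K9ac fed-only region count was 0. That count was also 0 with the upper 0.5 by score. H3K9ac marked 0 clock genes in all 8 lists in both of these selections and 5 with windows of 2.5 kb. A pseudocount of 2000 bp gave an H3K9ac fasting median of -0.29, and no filter an interaction median of 0.14. The cause of these shifts was not tested.

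Leaving out lists, the fasting median ran from -0.13 to -0.032 in H3K27ac genes, -0.22 to 0.092 in H3K27ac flanks, -0.93 to 0.017 in H3K9ac genes and -0.64 to 0.061 in H3K9ac flanks. The tetracycline median ran from 0.003 to 0.11 for H3K27ac and -0.39 to 0.23 for H3K9ac, and the interaction median from -0.15 to 0.058 and from -0.98 to 0.74. With 1 list number left, H3K27ac marked 9 to 10 and H3K9ac 4 to 7 clock genes in every list, and 0 to 1 clock genes were marked by H3K9ac in every Fed list and no Fast list. H3K27ac regions seen only with fasting then numbered 2 to 7 and only with feeding 0 to 2, and H3K9ac regions 3 to 6 and 5 to 6; fewer lists make such splits easier to meet. H3K9ac flank calls ran from 0 to 2. Single H3K27ac estimates ran from -0.122 to 0.032 for Clock, -0.189 to 0.039 for Npas2, -0.12 to 0.002 for Per1, -0.279 to 0.111 for Per2, -0.348 to 0.018 for Per3, -0.154 to 0.05 for Cry1, -0.162 to 0.017 for Cry2, -0.146 to 0.04 for Nr1d2 and -0.181 to 0.036 for Dbp, while Nr1d1 stayed below 0. Single H3K9ac estimates ran from -0.243 to 1.145 for Npas2, -0.954 to 0.283 for Per2, -0.979 to 0.063 for Per3 and -1.426 to 0.074 for Nr1d1, and the other 6 kept their sign. Depth is unknown, so a gene without a peak cannot be told apart from one below detection.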
